A study of Chlamydomonas reinhardtii with 4 samples.

Results

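Transcripts of 3 gene models of the photosystem II antenna system were followed in the Chlamydomonas reinhardtii wild-type strain cc3491 during nitrogen starvation. By the gene model numbers of the array, they were 184397's transcript, listed as LHCBM3 or LHCB5, 184810's, listed as LHCB4, and 126810's, listed as NAB1. They were chosen by the number of the gene model in the probe name, and every probe carrying one of these numbers was taken, which gave 9 of the 43671 probes and 3 of the 14557 models on the array. All 9 probes were present on all 4 arrays, and 8 of them passed the filter on dim spots, a filter that 22132 probes of 10772 models passed in all.

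The cells were grown in acetate medium (TAP), washed, and kept in the same medium without nitrogen under constant light. RNA of starved cells at 24, 48, 72 or 96 h was labelled with Cy5 and hybridized together with 0 h RNA of that strain, harvested at early stationary phase before nitrogen was removed and labelled with Cy3. Equal amounts of total RNA were labelled, so a ratio compares shares of RNA, and fewer transcripts per cell cannot be told apart from more RNA of other kinds. The dyes were not swapped, so a fixed dye effect of a probe and a change under starvation cannot be told apart. Biological replicates had been pooled, each time point was 1 array, and the 0 h RNA counted as 1 control sample whose biological spread enters no test. Every SD below is therefore the spread over 4 time points, and an SD of a 0 h value is the spread of the same RNA over 4 arrays.

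Light-harvesting proteins of photosystem II bind chlorophyll and carotenoids and pass excitation energy to the reaction centre. The major proteins, encoded by LHCBM genes, form trimers, while LHCB4 and LHCB5 are monomers that sit between the trimers and the core. NAB1 is a cytosolic RNA-binding protein of this alga that binds mRNAs of LHCBM proteins and represses their translation. One antenna model appears as LHCBM3 in the study's table of the nitrogen experiment and as LHCB5 in its other tables, and the files do not settle the name. Both names denote antenna proteins of photosystem II, and it is called LHCBM3/LHCB5 here. In the RefSeq table of assembly Chlamydomonas_reinhardtii_v5.5 the models match the loci CHLRE_16g673650v5 (LHCBM3/LHCB5), CHLRE_17g720250v5 (LHCB4) and CHLRE_06g268600v5 (NAB1).

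All 3 models were lower in starved cells than at 0 h. Averaged over the time points, LHCBM3/LHCB5 had a log2 ratio of starved over 0 h RNA of −3.07 ± 0.73, limited by saturation at 0 h, LHCB4 of −2.52 ± 0.56 and NAB1 of −1.10 ± 0.20 (SD, n = 4 time points). After loess normalization these are decreases of at least 8.42-fold for LHCBM3/LHCB5, of 5.73-fold for LHCB4 and of 2.14-fold for NAB1. With limma and Benjamini-Hochberg adjustment over all tested models, the adjusted p was 0.00139 for LHCBM3/LHCB5, 0.00117 for LHCB4 and 0.00106 for NAB1. Calls of lower models required a mean decrease of at least 2-fold with an adjusted p under 0.05, which 3 of the 3 models met, against 6.17% of all tested models (665 of 10772). Of the 8 kept probes 7 were called lower, against 8.23% of all kept probes. The study's table of this same experiment already lists all 3 models as lowered. These counts are therefore not independent evidence of the direction. Ordered from the lowest mean log2 ratio, LHCB4 ranked 87 and NAB1 ranked 647 of 10772 models, and LHCBM3/LHCB5 is given no rank because its ratio is a bound. None of the 3 calls held with the Holm correction that the study's methods name, where the adjusted p was 0.835 for LHCBM3/LHCB5, 0.648 for LHCB4 and 0.535 for NAB1.

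**Figure D1:**
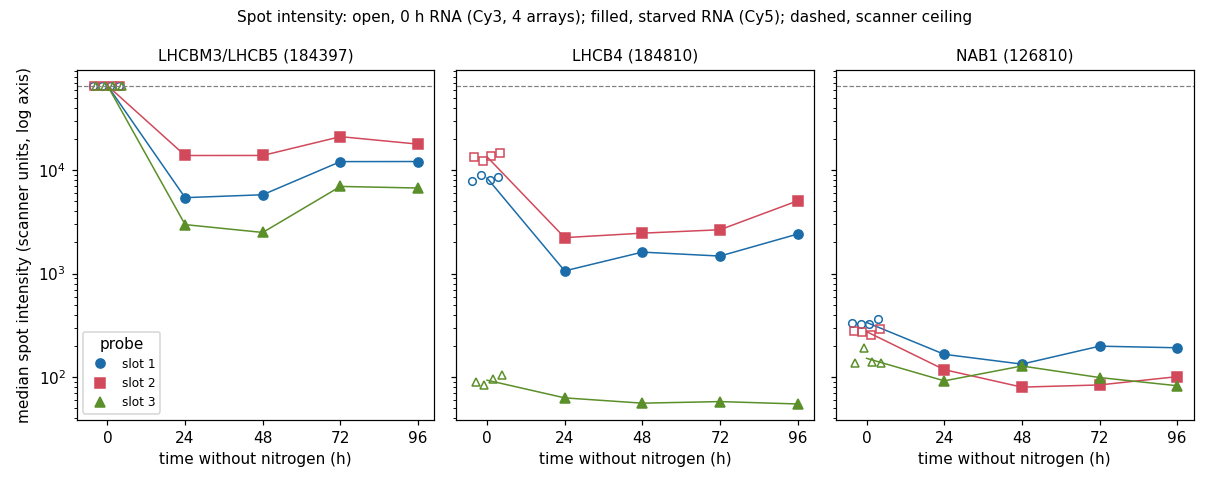
Median spot intensity in scanner units (log axis) against time without nitrogen for the 3 probes (slots) of each model. Filled symbols are starved RNA (Cy5) and open symbols the 0 h RNA (Cy3) on the 4 arrays, each line starts at the mean of the 0 h values, and the dashed line is the scanner ceiling. All 12 open symbols of LHCBM3/LHCB5 lie on the ceiling of 65529. The filled symbols of every probe lie below its own open symbols, also those of slot 3 of LHCB4, which was not above background. Raw Cy5 and Cy3 intensities have different scales.

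LHCBM3/LHCB5 was the only one of the 3 whose 0 h signal left the range of the scanner. The array carries 3 probes per model, called slots 1 to 3 after the number in the probe name. Raw Cy5 and Cy3 intensities have different scales, with array medians of 80 to 84.5 in Cy5 and 114 to 124 in Cy3, so that folds and tests rest on normalized ratios. Each slot of LHCBM3/LHCB5 was flagged as saturated in the 0 h channel on 4 of 4 arrays, at the ceiling of 65529, and in the starved channel on 0 of 4. In starved cells slot 1 gave an intensity of 5415.5 at 24 h, 5778 at 48 h, 12076 at 72 h and 12100 at 96 h. Slot 2 gave 13835, 13845, 21042 and 17817 at these times. Slot 3 gave 2973.5, 2497, 6952 and 6710. The starved values of all 3 slots were thus far below the ceiling at each time, and those of 72 and 96 h lay above those of 24 and 48 h in all 3 slots.

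Since the 0 h level was cut off at the ceiling, each ratio of LHCBM3/LHCB5 is a lower limit of the decrease. Channel values after loess and quantile normalization of the average intensities gave at least 8.42-fold for slot 1. They gave at least 4.14-fold for slot 2 and at least 16.3-fold for slot 3, averaged over the time points. These bounds set the saturated 0 h value against the starved value, are open to dye bias and hold only on this scale. With median centring of the arrays the log2 ratios were −2.87 for slot 1, −1.88 for slot 2 and −3.80 for slot 3, smaller decreases than −3.07, −2.05 and −4.03 after loess. The probe fit of limma gave an adjusted p of 0.00119 for slot 1, 0.000598 for slot 2 and 0.000808 for slot 3. Saturation at 0 h on all arrays held for 380 probes, 0.870% of the probes of models. Of these, 197 were also saturated in starved cells on all arrays and 96 on none. There were 6 models with all 3 probes saturated at 0 h on every array and none in starved cells, and LHCBM3/LHCB5 was one of them.

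The log2 ratios of slot 1 of LHCBM3/LHCB5 were −3.82, −3.57, −2.50 and −2.41 at 24, 48, 72 and 96 h. Those of slot 2 were −2.42, −2.27, −1.67 and −1.83, and those of slot 3 were −4.71, −4.81, −3.32 and −3.28. The slots kept the same order on all 4 arrays. Slot 2 minus slot 1 averaged 1.02 ± 0.39 and slot 3 minus slot 1 averaged −0.96 ± 0.19 (SD, n = 4 arrays), differences between ratios that are themselves bounds.

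LHCB4 was measured below the ceiling in both channels. Slot 1 gave 1062, 1612.5, 1477 and 2410.5 in starved cells at 24, 48, 72 and 96 h, against 7927.5, 9041, 8104 and 8485.5 at 0 h on the same arrays. Slot 2 gave 2226, 2458.5, 2652 and 5047 in starved cells, against 13272, 12217, 13534 and 14758 at 0 h. In both probes the starved and 0 h values did not overlap, also after normalization. The share of all probes without such overlap was not counted. In raw values the dim slot 3 of LHCB4 did not overlap either, with at most 63 in starved cells and at least 84.5 at 0 h. The same 0 h RNA varied between arrays with a coefficient of variation of 5.87% in slot 1 and 7.76% in slot 2, while the highest starved value was 2.27 times the lowest in each.

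The mean log2 ratio of LHCB4 was −2.65 ± 0.57 in slot 1 (adjusted p = 0.00091, limma) and −2.39 ± 0.56 in slot 2 (adjusted p = 0.00119, limma). Slot 2 lay above slot 1 on each array, by 0.14 to 0.38. The remaining probe, slot 3, was dim. It gave 63, 56, 58 and 55 in starved cells and 89, 84.5, 95 and 105 at 0 h, and it was not well above background in either channel on any array. It was not tested, and the model value of LHCB4 rests on 2 probes.

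**Figure D2:**
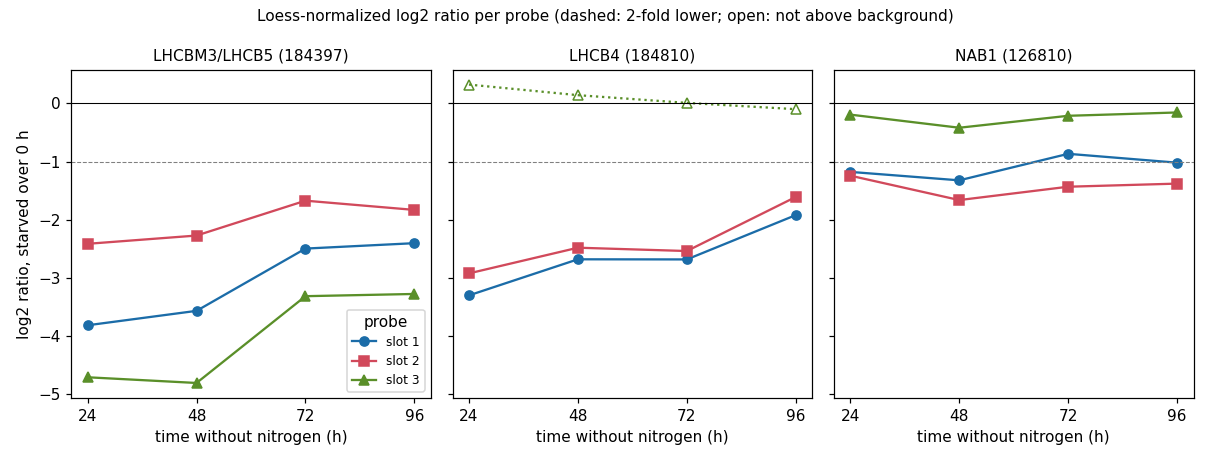
Loess-normalized log2 ratio of starved over 0 h RNA for each probe at 24, 48, 72 and 96 h, in 1 panel per model. The solid line marks no difference and the dashed line a 2-fold decrease. The ratios of LHCBM3/LHCB5 are bounds, slot 3 of LHCB4 (open, dotted) was not above background, and slot 3 of NAB1 stays between −0.42 and −0.16.

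At the spots of NAB1, the translational repressor, the local background was 38.5 to 50 in the starved channel and 29 to 37 in the 0 h channel. Each of its 3 probes was flagged as well above background on every array, in Cy5 as in Cy3. Slot 1 gave 166, 133.5, 199 and 192 in starved cells at 24, 48, 72 and 96 h, against 336.5, 324, 325 and 364 at 0 h. Slot 2 gave 118, 80, 84 and 101 in starved cells, against 279.5, 272.5, 255 and 293 at 0 h. In slots 1 and 2 the channels did not overlap, also after normalization, again with no share over all probes counted. Slot 3 gave 92, 128, 99 and 82.5 in starved cells, against 137, 192, 141 and 137.5 at 0 h. Its starved and 0 h levels overlapped after normalization, with 6.60 to 7.06 in starved cells and 6.76 to 7.48 at 0 h on the log2 scale.

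The mean log2 ratio of NAB1 was −1.10 ± 0.20 in slot 1 (adjusted p = 0.00108, limma) and −1.43 ± 0.17 in slot 2 (adjusted p = 0.000415, limma). Slot 3 gave −0.24 ± 0.12 and was not called (adjusted p = 0.0577, limma). Slot 3 lay above slot 1 by 0.85 ± 0.14 and above slot 2 by 1.19 ± 0.09 (SD, n = 4 arrays). In slot 3 the 0 h intensity alone varied by 17.7% between arrays, compared with 5.52% in slot 1 and 5.75% in slot 2. Probes of 1 model share a target and are not replicates.

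The size of the NAB1 decrease changed with the processing. The deposited log ratios gave −1.58 for the model, −2.72 for slot 2 and −0.75 for slot 3 (adjusted p = 0.00694 for slot 3, limma), compared with −1.10, −1.43 and −0.24 here. A smaller offset in the background correction (1 in place of 50) gave −1.37 for the model. The 2-fold limit was no longer met with median centring of the arrays (−0.70), with the mean of the probes in place of their median (−0.92) or from slot 3 alone (−0.24). All 8 kept probes had negative ratios on all arrays. The share of all kept probes with negative ratios on every array was not counted, and their median was 0.03 to 0.04 on the arrays. A decrease of at least 2-fold was seen in 7 of the 8 at 24 h (9.05% of all kept probes), in 7 at 48 h (9.12%), in 6 at 72 h (9.19%) and in 7 at 96 h (10.3%). Slot 3 of NAB1 never reached it, and slot 1 of NAB1 missed it at 72 h with −0.87.

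Both antenna models lay closer to their 0 h level late in starvation than at 24 h, though no trend passed the test. At 24, 48, 72 and 96 h LHCBM3/LHCB5 stood at −3.82, −3.57, −2.50 and −2.41 and LHCB4 at −3.11, −2.58, −2.61 and −1.77, while NAB1 stood at −1.18, −1.32, −0.87 and −1.02. The decrease was thus smaller at 96 h than at 24 h by 1.41 for LHCBM3/LHCB5, by 1.35 for LHCB4 and by 0.16 for NAB1 on the log2 scale. For LHCBM3/LHCB5 the 0 h value stood at the ceiling on every array, so its ratios are bounds, and their differences between times and their slope rest on the starved intensities. A difference of at least 1 in this direction was found in 2.73% of the tested models. The slope per 24 h was 0.53 ± 0.10 for LHCBM3/LHCB5, 0.40 ± 0.09 for LHCB4 and 0.09 ± 0.07 for NAB1 (SE, 4 arrays). None of them passed the trend test after adjustment over all models (limma, adjusted p = 0.206 for LHCBM3/LHCB5, 0.241 for LHCB4 and 0.675 for NAB1), which 0.149% of all models passed. Of the 8 probes 0 passed it, against 0.185% of all kept probes. The unadjusted p was 0.00484 for LHCBM3/LHCB5 and 0.00935 for LHCB4, and 1381 of the 10772 models had an unadjusted p under 0.05. Both slopes were called when the 72 h array was left out, with adjusted p = 0.0435 for LHCBM3/LHCB5 and 0.0383 for LHCB4 (limma), and in that fit 192 models in all were called, compared with 16.

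The normalized levels, also quantile-normalized between arrays, are given beside the SD of the 0 h level. This SD is the technical spread of 1 RNA in Cy3 after that step. It holds no biological variation, so the order of the time points was not tested. In slot 1 of LHCB4 the level was 9.80 at 24 h, 10.60 at 48 h, 10.41 at 72 h and 11.20 at 96 h, against 13.15 ± 0.09 at 0 h (log2 scale, SD of the 0 h level, n = 4 arrays). In slot 2 it was 10.92, 11.24, 11.23 and 12.27 at these times, against 13.81 ± 0.07 at 0 h. The 24 h level was lowest and the 96 h level highest among the starved samples in both probes. The levels of 48 and 72 h differed by 0.19 in slot 1 and by 0.01 in slot 2, in slot 2 less than the 0 h spread. In slot 1 of LHCBM3/LHCB5 the starved level was 12.28, 12.52, 13.52 and 13.62 from 24 to 96 h with the 0 h channel saturated, and the widest step lay between 48 and 72 h. In slot 1 of NAB1 the order was 72 h (7.55), 96 h (7.52), 24 h (7.30) and 48 h (7.06), against 8.45 ± 0.07 at 0 h, and 72 and 96 h differed by less than that spread. In slot 2 of NAB1 the order was 24 h (6.89), 96 h (6.78), 72 h (6.56) and 48 h (6.39), against 8.08 ± 0.08 at 0 h. Slot 3 of NAB1 had its highest starved level at 48 h (7.06) and its lowest at 96 h (6.60), against 7.01 ± 0.32 at 0 h. By these starved levels the 3 probes of NAB1 gave 3 different orders, with 48 h lowest in slots 1 and 2 and highest in slot 3. In slot 3 the 0 h level was also highest on the 48 h array (7.48). As log2 ratios to the 0 h RNA of the same array, 48 h was lowest in all 3 slots, with −1.32, −1.66 and −0.42.

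The 3 models were compared in pairs on the same arrays. The log2 ratio of LHCB4 minus that of NAB1 was −1.94, −1.26, −1.75 and −0.75 at 24, 48, 72 and 96 h, with a mean of −1.42 ± 0.53. The log2 ratio of LHCBM3/LHCB5 minus that of NAB1 averaged −1.98 ± 0.57 and was negative on 4 of 4 arrays. It was −0.62 when slot 2 alone stood for both models, −3.79 from slot 3 alone and −1.54 with the deposited ratios. Exact sign-flip permutation tests (two-sided, 3 pairs) gave p = 0.125 for both, the smallest that 4 arrays allow, and 0.1875 after Benjamini-Hochberg adjustment, so this design could not pass the threshold. Between LHCBM3/LHCB5 and LHCB4 the difference ranged from −0.99 to 0.11 over the arrays, with a mean of −0.55 ± 0.47 (exact permutation p = 0.25, adjusted 0.25), and it was 0.34 when slot 2 alone stood for both models. Pairs with LHCBM3/LHCB5 rest on its saturated 0 h values.

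**Figure D3:**
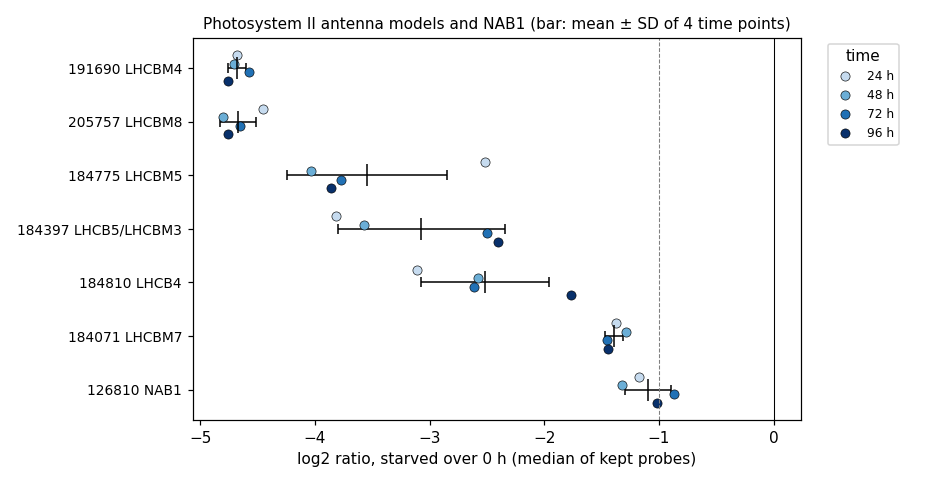
Log2 ratio of starved over 0 h RNA for the tested photosystem II antenna models and NAB1, each the median of its kept probes. Dots are 24, 48, 72 and 96 h from light to dark, and the black mark with its bar is the mean ± SD of the 4 time points. LHCBM4 and LHCBM8 lie lowest near −4.7, and NAB1 lies closest to 0. The 96 h dot lies to the right of the 24 h dot in LHCBM3/LHCB5 and LHCB4, and by 0.16 in NAB1.

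The study's tables named 7 models as LHCB or LHCBM, LHCBM3/LHCB5 and LHCB4 included, and the 6 with a kept probe were all called lower, against 6.17% of all tested models. Their median, with LHCBM3/LHCB5 at its bound, was −3.31, against a median of 0.05 over all tested models. These tables list models that the study selected on these samples, so the count is not independent evidence of the direction. LHCBM4 (CHLRE_06g283950v5) stood at −4.68 ± 0.08, LHCBM8 (CHLRE_03g172500v5) at −4.67 ± 0.16, LHCBM5 (CHLRE_03g156900v5) at −3.55 ± 0.70 and LHCBM7 (CHLRE_12g548950v5) at −1.39 ± 0.08, all of them trimer proteins by name. The value of LHCBM7 is that of slot 2, which was well above background in starved cells on 2 of 4 arrays, with both other probes saturated at 0 h, so it is limited by dim and by saturated signal. In LHCBM4, 1 of 3 probes was saturated at 0 h on all arrays. LHCBM9 (CHLRE_06g284200v5) was not tested, since its probes were too dim to be kept, and their mean ratios lay between −0.17 and −0.12. LHCBM genes are near-identical copies, and signal can be split or shared between their probes. The LHCBM names are those of the study's tables, and the RefSeq table held no matching symbol to check them by.

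The course of the other antenna models is set beside that of LHCBM3/LHCB5 and LHCB4 with no test of the difference. LHCBM4 moved by −0.08 between the 24 and 96 h arrays, LHCBM8 by −0.30, LHCBM7 by −0.07 and LHCBM5 by −1.35, the last towards a larger decrease. Disagreement between probes of a model was also found in this family. In LHCBM7, slot 1 was saturated at 0 h on 4 arrays and in starved cells on 1, with −0.15, whereas slot 3, saturated at 0 h on 4 arrays only, gave −2.80. In LHCBM8 the 3 probes gave −4.25, −4.67 and −6.51, all well above background in both channels.

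Further genes of the photosynthetic apparatus named in the same tables were mostly lower too. Of 7 models of the photosystem I antenna (LHCA), 7 were tested and 6 were called lower, against 6.17% of all tested models, with a median of −1.74 and a range of −2.86 to 2.42. In 5 of the 7, that at −2.86 included, every array had 2 of 3 probes at the ceiling in the 0 h channel, which limits their values. Of 5 models of photosystem II subunits (PSB), 4 were tested and 3 were called lower (again against 6.17% of all tested models), with a median of −1.75 and a range of −2.60 to −0.24. Both models of chlorophyll synthesis that these tables name were called lower, with the same share of 6.17% over all models. CRD1, an enzyme of chlorophyll ring formation, had a mean log2 ratio of −1.68, and CHLM, a methyltransferase of the same pathway, had −1.61. In these lists 0 models were called higher by limma with Benjamini-Hochberg adjustment. The lists hold only models that the study's tables name, so their counts are not independent evidence of the direction. The highest value, 2.42 ± 2.13, belonged to a model listed as LHCA1 and was not called (adjusted p = 0.0701, limma).

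The models most like LHCB4 and NAB1 in their 4 ratios were sought among those with at least 2 kept probes and no probe saturated throughout, of which there were 7103. None is given for LHCBM3/LHCB5, whose ratios are bounds. Likeness was the root mean square difference of the log2 ratios over the 4 arrays. NAB1 was closest to model 206049, which has no matched locus, with a difference of 0.08, followed by 195513 (CHLRE_10g424450v5, 0.11) and 98035 (CHLRE_06g265400v5, 0.12). LHCB4 was closest to 30639 (CHLRE_13g588100v5) with 0.27, 205734 (CHLRE_06g298802v5) with 0.32 and 194541 (CHLRE_06g294650v5) with 0.33. Model 30639 stood at −2.69, −2.45, −2.30 and −1.82 from 24 to 96 h, a course in the same direction as that of LHCB4. Likeness over 4 arrays is a description and was not tested.

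**Figure D4:**
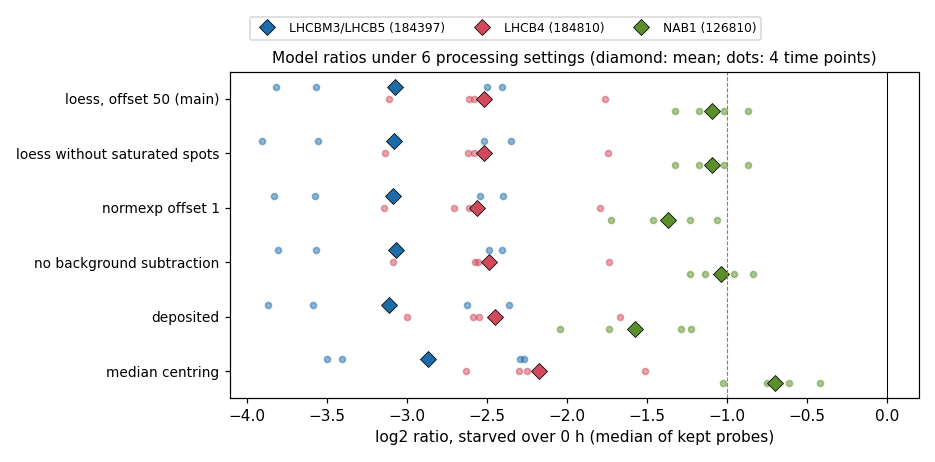
Log2 ratio of starved over 0 h RNA for the 3 models under 6 ways of processing the same spots. Diamonds are means over the 4 time points, dots the single time points, and the dashed line marks a 2-fold decrease. The means of LHCBM3/LHCB5 and LHCB4 stay left of −2 in all 6, while that of NAB1 moves between −1.58 (deposited ratios) and −0.70 (arrays centred on the median).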

How the data were processed

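Total RNA of pooled cultures was hybridized on 4 two-colour Agilent arrays of 1 slide, read by the authors with Feature Extraction 10.7.3.1. The deposited intensity values are medians over pixels of spot and background, with flags for saturation and background, and the deposited log10 ratios are processed Cy5 over processed Cy3 intensities after background subtraction and dye normalization. The log10 values of the authors' series table were identical to these. Probes were designed on JGI 3.1 gene models, among them 184397 (LHCBM3/LHCB5), 184810 (LHCB4) and 126810 (NAB1). The study added earlier-generation probes that gave smaller ratios and, in many cases, could cross-hybridize, and it left their data out of its analysis. The probe names do not mark them, so every slot was used here.

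Median intensities were corrected with normexp (offset 50), followed by loess in each array (span 0.3, 4 iterations), in R 4.3.3 with limma 3.58.1. For the channel levels only, average intensities were then quantile-normalized between arrays, which leaves the ratios unchanged. A probe was kept when well above background in one channel on all 4 arrays, and a model was the median of its kept probes. The mean log2 ratio was tested against 0 with limma (two-sided, 3 residual degrees of freedom) and the trend with 2, with Benjamini-Hochberg adjustment, and the fits were checked on simulated data. All member probes were named, with the LHCB models of the study's tables, and for other lists the counts, the median and the extremes (both listed models of chlorophyll synthesis are these extremes). Members, lists and tests were chosen with earlier results of these data known. The number of arrays limits the precision. Probe sequences and coordinates were not used here.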

Additional observations from a re-analysis of the deposited data

How the results depend on the processing

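The decreases of LHCBM3/LHCB5 and LHCB4 kept their direction and call in 16 of 17 alternatives each, with means of −4.03 to −2.05 and −2.77 to −2.17. NAB1 did so in 14 of 18, with means of −1.58 to −0.24. Some of these alternatives could not move a mean, so the counts overstate how far the values were tried. The values of LHCBM3/LHCB5 and NAB1 are those of their slot 1, so slot 1 alone repeats them. Either change of the filter on dim spots left both unaltered. For LHCB4, with 2 kept probes, the mean of the probes equals their median. With Holm adjustment no member was called, at unaltered means of −3.07, −2.52 and −1.10, and the calls of lower models numbered 134 and of lower probes 160, compared with 665 and 1821. NAB1 fell short of 2-fold with median centring (−0.70), with the mean of its probes (−0.92) and from slot 3 alone (−0.24). Median centring gave 1127 lower probes and 8 models with a trend, compared with 16, and its array medians of all models were 0.18 to 0.27, compared with 0.04 to 0.06 here and 0.13 to 0.16 in the deposited ratios. Leaving out 1 array at a time gave 0 to 192 models with a trend, 192 without the 72 h array. The difference between LHCBM3/LHCB5 and LHCB4 turned to 0.34 from slot 2 alone. The cause of these changes was not tested. Giving saturated spots no weight in the loess fit, an alternative chosen after seeing the data, changed no call of a member. No value could be had for normexp on mean intensities (the columns used hold medians), for LHCBM3/LHCB5 without saturated probes, or for LHCB4 from slot 3 alone. No paired analysis was possible because the time points share fewer than 2 replicate numbers, beyond the pairing of starved and 0 h RNA on each array that every ratio already uses. Saturation limits the ratios of LHCBM3/LHCB5, and low starved signal over background those of slots 2 and 3 of NAB1.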
